A study of Mus musculus with 18 samples.

Results

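Expression of 10 genes of GABAergic interneurons was followed in postnatal day 0 (P0) mouse brain and in neural progenitors grown from it. They are *Gad1*, *Gad2*, *Slc32a1*, *Dlx1*, *Dlx2*, *Dlx5*, *Dlx6*, *Lhx6*, *Sst* and *Npy*, chosen by name as markers of a neuron class that does not descend from *Emx1*-expressing progenitors, and they are 10 of the 56585 gene names in the 4 expression tables. The first 3 comparisons remove the CxxC zinc finger of KDM2B, encoded by a floxed exon of *Kdm2b*, with *Emx1*-Cre, which is active in the progenitors of the dorsal telencephalon. Controls were labelled Kdm2bfl/+ or Kdm2bfl/fl and conditional knockouts (cKO) Kdm2bEmx1-delta-CxxC, with 3 and 3 P0 hippocampi, 2 and 2 P0 cortices, and 2 and 2 neurosphere cultures, which are progenitors from P0 hippocampi passaged as floating spheres with FGF2 and EGF. The fourth comparison sets 2 P0 hippocampi labelled Rnf2fl/+ or Rnf2fl/fl against 2 labelled Rnf2Emx1-cKO, from which *Rnf2*, the gene of the PRC1 ubiquitin ligase RING1B, was deleted. The labels do not separate controls with 1 floxed allele from those with 2, do not say whether controls carried Cre, and do not state that each library came from its own animal, so p-values measure only the spread between these libraries.

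Interneurons release GABA, the main inhibitory transmitter of the forebrain. They are born in the ganglionic eminences of the ventral telencephalon, under the control of DLX transcription factors, and migrate into cortex and hippocampus, where they settle among excitatory neurons born locally from *Emx1*-expressing progenitors. KDM2B binds unmethylated CpG dinucleotides through its CxxC zinc finger and brings a variant of PRC1, which ubiquitylates histone H2A, to CpG-rich promoters, and DLX genes are well-known Polycomb targets in cells of other lineages.

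Values are FPKM, that is fragments counted on a gene, scaled to its transcript length and to the mapped fragments of the library, so levels of different genes can be compared within a library. A gene was tested if its mean over the libraries of a comparison was at least 0.5 FPKM. It was called changed when its log2 fold change, cKO minus control on the log2(FPKM + 1) scale, was over 0.4 in size with an unadjusted p under 0.05 from limma, and adjusted p-values are over all genes tested in that comparison. On this scale the change of weakly expressed genes comes out too small. Recovered reads came to between 18480515 and 21905224 per cortical library and between 14654894 and 16334420 per library of the *Rnf2* table, while the depth of the *Kdm2b* hippocampal and neurosphere libraries is unknown here. FPKM of neurosphere control 1 summed to 855276, of which 29.3% lay in entries without a gene name, against totals of 452580 to 522964 in the other neurosphere libraries. *Kdm2b* itself was at 28.1 to 31.9 FPKM in control and 26.2 to 28.2 FPKM in cKO hippocampi, and *Rnf2* at 30.8 and 32.3 FPKM in controls against 27.8 and 28.5 FPKM in *Rnf2* cKO hippocampi. These are values over whole genes, which do not separate the floxed exons, and neither gene was called in any comparison.

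All 10 genes were detected in every tissue library, at least at 0.217 FPKM, so the tissues hold RNA of interneurons as the label says. *Emx1*-lineage markers were present beside them, with *Neurod6*, a gene of excitatory neurons, at 131 to 180 FPKM in *Kdm2b* hippocampi and 492 to 564 FPKM in cortices. The neurospheres were different. Of the 10 genes, 7 had means of at most 0.342 FPKM there, *Neurod6* did not exceed 0.0754 FPKM in any library, and the progenitor gene *Olig2* was at 489 to 516 FPKM. So the name of the set applies to the tissues, and in the cultures its genes are described one by one. In tissue, a lower value from fewer interneurons cannot be told apart from less RNA per interneuron. Nor can RNA of these genes from other cells be told apart there, and *Gad1* was at 42.5 and 42.6 FPKM in control neurospheres. How much of the tissue values came from other cells was not tested.

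Most of the genes lie in a few places of the genome. In GRCm38, 6 are on chromosome 2 (*Gad1*, *Gad2*, *Slc32a1*, *Dlx1*, *Dlx2* and *Lhx6*), 3 on chromosome 6 (*Dlx5*, *Dlx6* and *Npy*) and *Sst* is on chromosome 16. *Dlx1* (ENSMUSG00000041911, chr2:71528113-71533981, plus strand) and *Dlx2* (ENSMUSG00000023391, chr2:71543408-71546754, minus strand) face each other across 9426 bases, and *Dlx6* and *Dlx5* do so across 9236 bases on chromosome 6. *Dlx5* (ENSMUSG00000029755) spans chr6:6877805-6882085 on the minus strand and *Dlx6* (ENSMUSG00000029754) chr6:6863334-6868568 on the plus strand. *Npy* (ENSMUSG00000029819) spans chr6:49822710-49829507 on the plus strand, *Sst* (ENSMUSG00000004366) chr16:23889573-23890958 on the minus strand and *Lhx6* (ENSMUSG00000026890) chr2:36081953-36105408 on the minus strand. The genes of GABA synthesis and transport, all on the plus strand, are *Gad1* (ENSMUSG00000070880) at chr2:70553072-70602014, *Gad2* (ENSMUSG00000026787) at chr2:22622205-22693874 and *Slc32a1* (ENSMUSG00000037771) at chr2:158610767-158615748. *Dlx1* overlaps the antisense gene *Dlx1as*, *Dlx6* overlaps *Dlx6os1*, *Gad1* overlaps *Gad1os* and *Slc32a1* overlaps *Gm14205*. The strand setting of the counting is not given in the sources used here, so reads of these 4 genes cannot be told apart from those of their antisense partners.

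RefSeq promoter windows (GRCm38.p6, the 250 bases before a start site) were available for 8 of the 10 genes, in 10 windows, and 4 windows did not overlap an annotated exon. The windows of *Dlx2* and *Npy*, which were called in tissue, are shown with one of *Lhx6*, which was not called in any comparison, since CpG is the letter pair that the CxxC finger reads. Each is printed 5′ to 3′ on the strand of its gene, with every CG in capitals. The *Dlx2* window is chr2:71546755-71547004 (minus strand), the *Npy* window chr6:49822460-49822709 (plus strand) and the *Lhx6* window chr2:36105409-36105658 (minus strand).
Dlx2: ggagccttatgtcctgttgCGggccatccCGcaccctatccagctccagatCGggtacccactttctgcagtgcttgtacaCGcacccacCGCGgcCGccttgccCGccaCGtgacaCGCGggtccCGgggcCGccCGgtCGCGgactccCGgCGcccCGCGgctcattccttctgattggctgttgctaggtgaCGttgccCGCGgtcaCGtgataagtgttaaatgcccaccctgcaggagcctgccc
Npy: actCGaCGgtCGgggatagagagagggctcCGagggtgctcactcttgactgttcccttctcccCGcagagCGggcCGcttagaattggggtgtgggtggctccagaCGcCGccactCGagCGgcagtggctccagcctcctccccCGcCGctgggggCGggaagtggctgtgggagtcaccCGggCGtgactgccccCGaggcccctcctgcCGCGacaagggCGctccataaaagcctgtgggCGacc
Lhx6: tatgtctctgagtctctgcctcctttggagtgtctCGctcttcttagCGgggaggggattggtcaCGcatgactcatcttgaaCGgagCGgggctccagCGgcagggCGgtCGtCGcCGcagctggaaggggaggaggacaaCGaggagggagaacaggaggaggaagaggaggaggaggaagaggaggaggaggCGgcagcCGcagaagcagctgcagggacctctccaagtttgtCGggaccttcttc
The letters CG, which read the same on both strands, occurred 24 times in the *Dlx2* window, 21 times in that of *Npy* and 14 times in the *Lhx6* window shown. *Lhx6* has 3 windows, one per start site, and the other two held 7 and 17. The *Dlx1* window held 22 and that of *Gad1* 17, and the counts over all 10 windows ran from 7 to 24. Among 32851 RefSeq windows of this length, 92.1% held at least 1 CG and the median was 6, and 88.0%, 83.7% and 70.6% held fewer than the printed windows of *Dlx2*, *Npy* and *Lhx6*. Methylation and KDM2B binding at these windows were not analysed here.

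**Figure D1:**
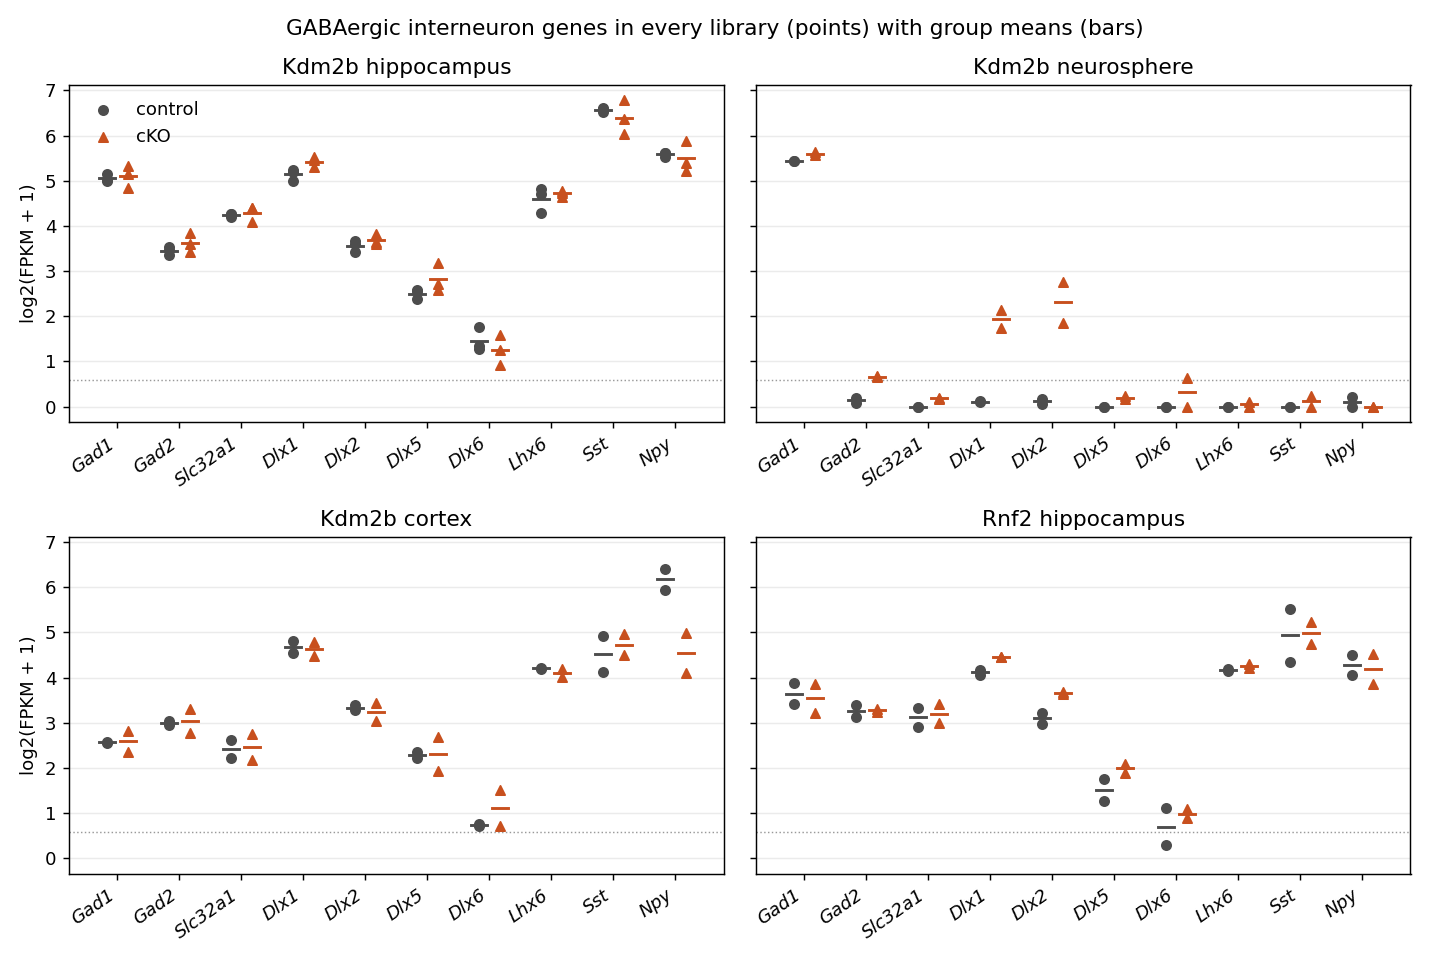
Each point is 1 library and each bar a group mean on the log2(FPKM + 1) scale, for the 10 genes in the 4 comparisons (circles control, triangles cKO); the dotted line marks 0.5 FPKM. In the tissue panels the groups lie farthest apart for *Npy* in cortex, with *Dlx2* of *Rnf2* hippocampi also separate, while in neurospheres *Gad1* stands alone at the top and *Dlx1* and *Dlx2* leave the floor in cKO libraries.

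In hippocampi of *Kdm2b* cKO mice no interneuron gene passed the call rule. Of the 10 genes, 0 were called, where 6.14% of the 13446 genes tested were. At an unadjusted p under 0.05 alone, limma found 1 (*Dlx1*), where 23% of all genes tested were. The log2 fold changes of the 10 ran from -0.21 to 0.32 with a median of 0.09, beside a median of 0.01 over all genes tested, and 7 were positive.

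The genes for making and packing GABA came first. *Gad1*, which encodes the GABA-synthesizing enzyme GAD67, was at 34.4, 30.7 and 31.5 FPKM in controls and 27.6, 34.5 and 38.8 FPKM in cKO hippocampi. *Gad2*, which encodes the synaptic form GAD65, was at 10.5, 9.25 and 10.04 FPKM against 9.78, 11.2 and 13.4 FPKM. *Slc32a1*, the vesicular GABA transporter, was at 18.1, 18.05 and 17.3 FPKM against 15.9, 19.97 and 20.2 FPKM. In all 3 the groups overlapped, with the cKO libraries spread more widely than the controls. Their log2 fold changes were 0.05 (95% interval -0.19 to 0.29), 0.18 (-0.06 to 0.42) and 0.06 (-0.14 to 0.26), so changes beyond these bounds were not seen and smaller ones could not be resolved.

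*Dlx1*, a homeobox gene needed for the specification and survival of interneurons, was the one member whose groups were separate, and 29.2% of all genes tested were separated in this comparison. It was at 35.4, 30.9 and 36.7 FPKM in controls and at 38.3, 45.1 and 42.7 FPKM in cKO hippocampi. Every cKO library lay above every control, by a log2 fold change of 0.29 (SE 0.079, 95% interval 0.11 to 0.46, limma adjusted p = 0.0575), which is under the threshold of 0.4. Its entry in this table is joined with *Metap1d*, a neighbouring gene for a mitochondrial aminopeptidase, so the value belongs to both.

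The partner *Dlx2*, which acts together with *Dlx1*, was at 11.2, 9.67 and 11.6 FPKM in controls and 13.1, 11.1 and 11.6 FPKM in cKO hippocampi, with overlapping groups. *Dlx5*, expressed downstream of *Dlx1* and *Dlx2*, was at 4.97, 4.87 and 4.18 FPKM against 4.96, 5.59 and 7.99 FPKM, where cKO library 3 stood highest. Its log2 fold change was 0.32 (SE 0.147, 95% interval -0.01 to 0.65), and without cKO library 1 it was 0.44 and called, with a limma adjusted p of 0.127. *Dlx6*, the least abundant of the set, was at 1.53, 2.395 and 1.42 FPKM against 0.899, 1.39 and 1.98 FPKM. *Lhx6*, the transcription factor that marks interneurons of the medial ganglionic eminence, was at 25.2, 18.6 and 27.002 FPKM against 23.8, 25.6 and 26.5 FPKM, and its groups overlapped too.

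The peptides were the most abundant members here. *Sst*, which encodes somatostatin, was at 96.9, 91.1 and 94.8 FPKM in controls and 81.1, 64.1 and 109 FPKM in cKO hippocampi. *Npy*, which encodes neuropeptide Y, was at 44.7, 47.9 and 47.9 FPKM against 40.7, 36.2 and 57.9 FPKM. For both, the controls lay close together while cKO libraries lay below and above them, with SDs of 2.94 and 22.7 FPKM for *Sst* and 1.83 and 11.5 FPKM for *Npy* (n = 3 each). Their log2 fold changes were -0.19 and -0.09. Without cKO library 3 they were -0.38 for *Sst* and -0.28 for *Npy* (limma adjusted p = 0.0424 and 0.0405), still under the threshold of 0.4 in size, and without cKO library 2 they were -0.0036 and 0.052. Among the cKO libraries, number 3 was the highest of all 6 libraries for 6 of the 10 genes.

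In control hippocampi the order of mean levels, per length, was *Sst* (94.3 ± 2.94 FPKM, SD, n = 3), *Npy* (46.9 ± 1.83), *Dlx1* (34.3 ± 3.04), *Gad1* (32.2 ± 1.96), *Lhx6* (23.6 ± 4.43), *Slc32a1* (17.8 ± 0.477), *Dlx2* (10.8 ± 1.01), *Gad2* (9.94 ± 0.649), *Dlx5* (4.68 ± 0.431) and *Dlx6* (1.78 ± 0.536). The neighbours *Dlx1* and *Gad1*, and *Dlx2* and *Gad2*, differed by less than the sum of their SDs.

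Of 25 further genes of interneurons and GABA signaling, 23 were tested in *Kdm2b* hippocampi, and 3 rose and 0 fell by the call rule, where 6.14% of all genes were called. Their median log2 fold change was 0.08, beside 0.01 over all genes, with 15 higher and 8 lower. The 25 genes summed to 486 to 521 FPKM in controls and 523 to 579 FPKM in cKO hippocampi. *Cxcr4*, the chemokine receptor that keeps migrating interneurons in their streams, was at 53.9, 56.8 and 59.2 FPKM in controls and 78.2, 76.1 and 82.6 FPKM in cKO hippocampi, a log2 fold change of 0.47 (SE 0.0529, adjusted p = 0.00226 from limma). *Sox6*, a factor of the *Lhx6* class, was at 5.40, 3.99 and 5.46 FPKM against 7.64, 8.17 and 6.46 FPKM (log2 fold change 0.51, adjusted p = 0.039 from limma), and without control library 2 its change was 0.38, under the threshold. *Sp8*, a zinc finger factor of caudal and lateral eminence interneurons, was at 1.39, 1.64 and 1.47 FPKM against 2.17, 3.53 and 2.65 FPKM (log2 fold change 0.58, adjusted p = 0.0364 from limma). All 3 are also known from cells of the dorsal telencephalon: *Cxcr4* from precursors of dentate granule cells, *Sox6* from pallial progenitors and *Sp8* from medial pallial progenitors.

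Other marker lists moved in these hippocampi as well, and their genes are named here after their values were seen. The summed level of 5 thalamic markers was 26.1 to 29.9 FPKM in controls and 36.9 to 40.1 FPKM in cKO libraries. Of 4 tested genes, 2 were called higher (*Lhx9* and *Tcf7l2*). The largest parts of the thalamic sum were *Lhx9* (log2 fold change 0.57) and *Slc17a6* (0.34, not called). The list did not move as a whole, since *Rora* was lower (log2 fold change -0.15). *Gbx2*, under the filter, was at means of 0.0381 FPKM in controls and 0.228 FPKM in cKO. The sum of 5 microglial markers was 15.8 to 17.99 against 20.1 to 24.4 FPKM, with 1 of 5 called higher (*Cx3cr1*). That of 10 markers of striatal projection neurons was 72.5 to 77.7 against 62.1 to 69.1 FPKM, with 1 of 8 called lower (*Penk*, which encodes the precursor of enkephalin). The largest part of the striatal sum was *Foxp1*, at means of 43.6 FPKM in controls and 33.5 FPKM in cKO, and its entry is joined with *Eif4e3*. Of the 8 tested striatal genes, 6 were lower and 2 higher (*Ppp1r1b* and *Rgs9*). The sums of 10 genes of *Emx1*-lineage excitatory neurons overlapped, at 625 to 709 against 536 to 633 FPKM, with 4 genes higher and 6 lower. *Tbr1* was among the higher ones (log2 fold change 0.27). Of the 10, 2 were called lower (*Slc17a7* and *Bcl11b*), where 6.14% of all genes tested were called. The part of these cells in the values of interneuron genes was not tested.

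**Figure D2:**
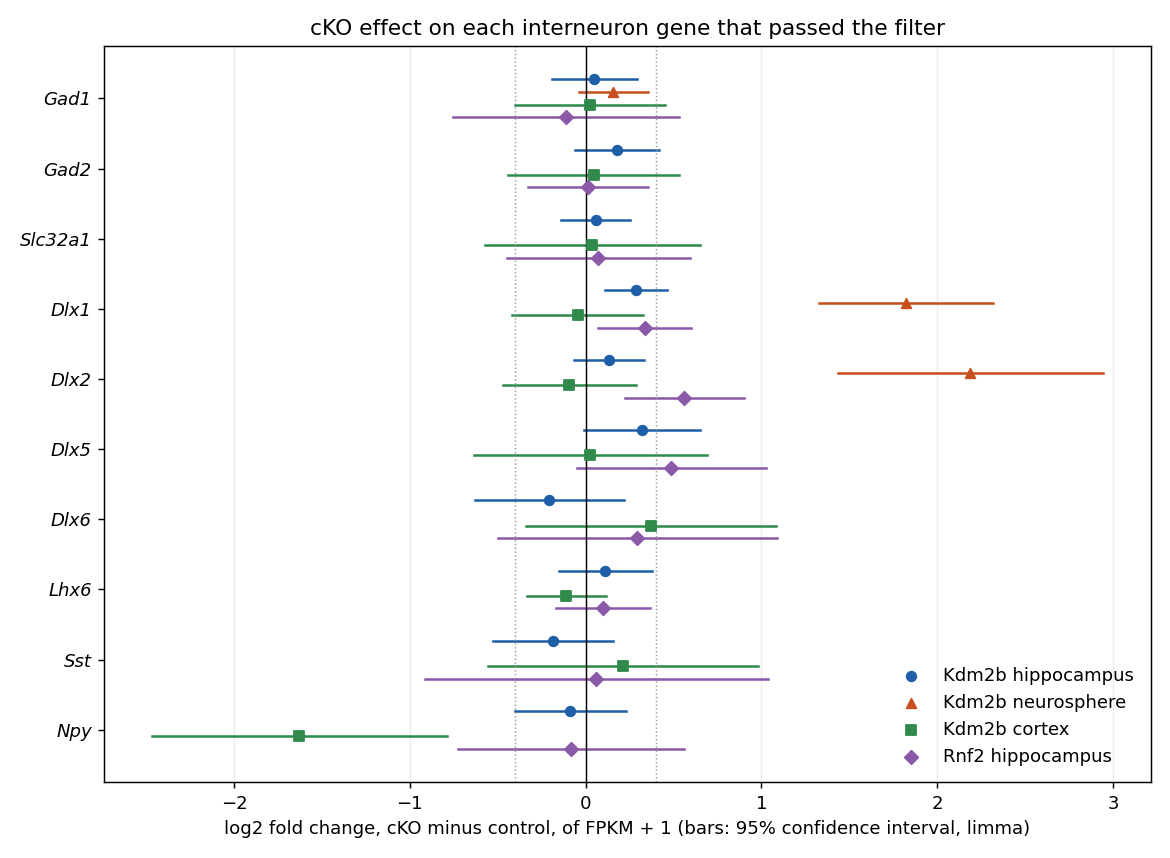
Each symbol is the log2 fold change (cKO minus control, FPKM + 1) of a gene in 1 comparison and each bar its 95% confidence interval from limma; dotted lines mark the threshold of 0.4 in size, and genes under the filter in neurospheres have no symbol. Most intervals include 0, while *Npy* in cortex lies at -1.63 and *Dlx1* and *Dlx2* in neurospheres lie at 1.82 and 2.19.

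Neurospheres had a different profile of these genes, with *Gad1* abundant and the others at or near 0 in controls. *Gad1* was at 42.5 and 42.6 FPKM in controls and 46.1 and 49.0 FPKM in cKO cultures, with both cKO cultures above both controls by a log2 fold change of 0.16 (95% interval -0.04 to 0.35) that was not called. *Gad2* was at 0.144 and 0.0580 FPKM in controls and 0.577 and 0.588 FPKM in cKO cultures, and *Slc32a1* was listed at 0 in both controls and at 0.146 and 0.129 FPKM in cKO cultures. High *Gad1* was thus found without comparable levels of the other genes of GABA synthesis and packing.

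*Dlx1* and *Dlx2* were close to 0 in control neurospheres and at a few FPKM in both cKO cultures. *Dlx1* was at 0.0868 and 0.0654 FPKM in controls and 3.38 and 2.31 FPKM in cKO cultures. *Dlx2* was at 0.126 and 0.0468 FPKM against 5.75 and 2.63 FPKM. For both genes cKO culture 1 was the higher one and the groups lay far apart.

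The log2 fold changes were 1.82 for *Dlx1* (SE 0.20, limma adjusted p = 0.00352 from limma) and 2.19 for *Dlx2* (SE 0.306, adjusted p = 0.00707). With a pseudocount of 0.1 in place of 1 FPKM they were 4.04 and 4.45. Both were called, as were 24.6% of the 12226 genes tested in neurospheres, but both passed the filter only through the cKO libraries and so had to differ, and the other 7 genes were under the filter. Separation of the groups was common as well, at 66.4% of all genes tested. Without control 1, the library with many unnamed entries, the changes were 1.84 and 2.24, and both passed the unadjusted rule, with adjusted p-values of 0.0396 and 0.0598 from limma.

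The remaining members stayed at or near 0. *Dlx5* was listed at 0 in both controls and at 0.116 and 0.172 FPKM in cKO cultures. *Dlx6* was listed at 0 in 3 libraries and at 0.556 FPKM in cKO culture 1, *Lhx6* and *Sst* likewise with 0.0638 and 0.166 FPKM in that culture, and *Npy* was at 0.15 FPKM in control 1 alone. No fold is given for them. *Dlx1as*, the antisense partner of *Dlx1*, was listed at 0 in both controls and at 0.328 and 0.270 FPKM in cKO cultures.

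The cKO effects in neurospheres and in hippocampi were set side by side. The difference in log2 fold change, neurosphere minus hippocampus, was 1.54 for *Dlx1* (SE 0.171) and 2.06 for *Dlx2* (SE 0.287). These are given as a description, since both genes passed the neurosphere filter only through the cKO libraries, and the hippocampal *Dlx1* entry is joined with *Metap1d* while that of neurospheres is not. For *Gad1* the difference was 0.11 (adjusted p = 0.658 for the limma interaction), and 26.9% of the 11077 genes tested in both tables passed that test. The 7 other members could not be compared.

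Of the 25 further interneuron and GABA genes, 17 were tested in neurospheres, and 8 were under the filter and could not be called. Of the 17, 0 rose and 5 fell, where 24.6% of all genes tested were called in either direction. *Maf*, a factor of medial eminence interneurons that is also known from other cell types, was at 11.2 and 10.1 FPKM in controls and 4.95 and 6.14 FPKM in cKO cultures (log2 fold change -0.83, adjusted p = 0.00891 from limma). *Erbb4*, the neuregulin receptor, was at 31.9 and 28.6 against 21.0 and 16.1 FPKM (log2 fold change -0.68, adjusted p = 0.0214). *Htr3a*, a serotonin receptor subunit, was at 1.80 and 2.41 against 0.284 and 0.639 FPKM (log2 fold change -1.09, adjusted p = 0.0174). The other two were *Tac1*, the gene of substance P, with a log2 fold change of -1.24, and *Npas1*, a transcription factor, with -0.63, and both had adjusted p-values over 0.05 (0.0583 and 0.101 from limma). Neither was called without control 2 (-1.01 and -0.45), and *Npas1* was not called without cKO culture 2 (-0.45) or with the replicate number as a block. After scaling to the same FPKM total, *Erbb4* was at -0.57 and not called. *Htr3a* and *Npas1* averaged 0.461 and 0.387 FPKM in cKO cultures. They passed the filter of 0.5 FPKM only through the controls and so had to be lower. *Tac1* averaged 0.501 FPKM in cKO cultures, next to the filter.

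Of 6 markers of ventral progenitors, 5 were tested in neurospheres, where 24.6% of all genes tested were called. *Gsx2* and *Six3* were called higher and *Gsx1* was called lower. *Gsx2* was at 0.150 and 0.387 FPKM in controls and 0.736 and 1.37 FPKM in cKO cultures (adjusted p = 0.091 from limma). Both *Gsx2* and *Six3* passed the filter only through the cKO libraries and so had to be higher. *Six3*, a homeobox gene of the ventral forebrain, was at 0.308 and 0.0175 FPKM in controls and 16.7 and 23.5 FPKM in cKO cultures, and it was singled out after its values were seen. *Nkx2-1*, which defines the medial ganglionic eminence, was listed at 0 in all 4 cultures. *Emx1* itself was at 0.175 and 0 FPKM in controls and 1.16 and 1.84 FPKM in cKO cultures. It was called higher, but it too passed the filter only through the cKO libraries and so had to be higher. Whether the cultures differ in their makeup of dorsal and ventral progenitors was not tested.

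**Figure D3:**
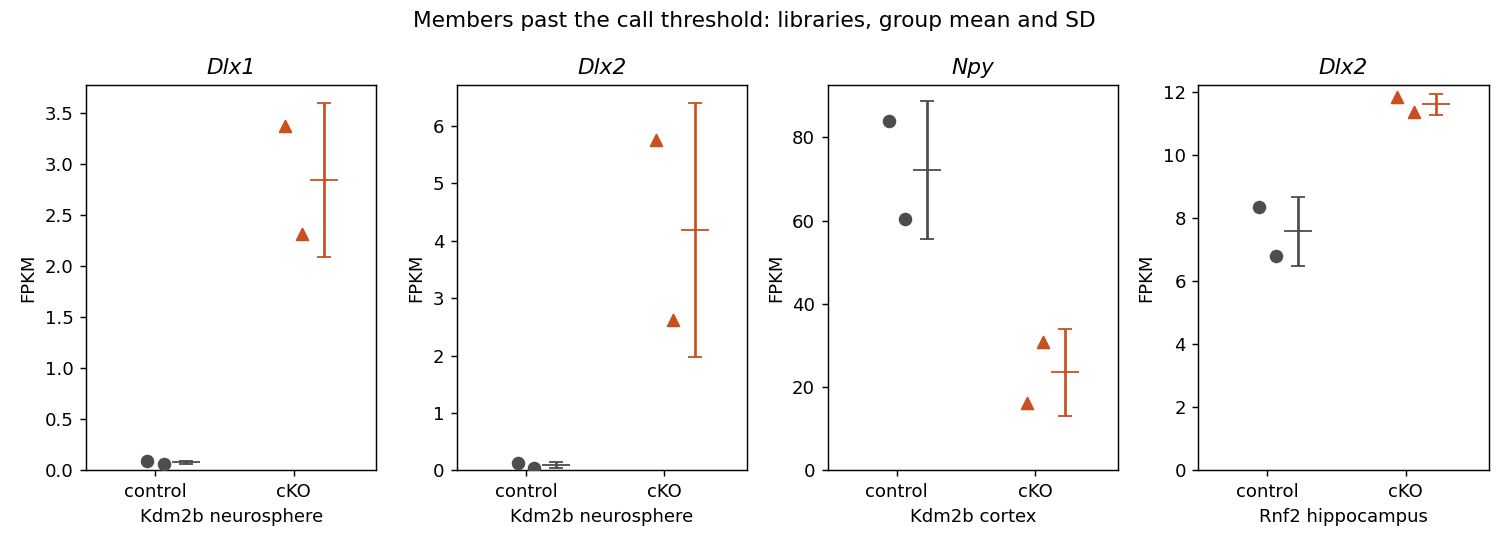
Library values in FPKM (points), with the group mean and SD beside them, of the genes past the call threshold; each panel has its own axis from 0 and 2 libraries per group. The groups do not overlap in any panel: *Dlx1* and *Dlx2* sit near 0 in control neurospheres, *Npy* falls from 72.2 to 23.5 FPKM in cortex and *Dlx2* is 7.58 and 11.6 FPKM in the *Rnf2* comparison.

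In cortex, *Npy* was the member that changed. It was at 83.9 and 60.4 FPKM in controls and 16.1 and 30.9 FPKM in cKO cortices, so both cKO libraries lay below both controls. Recovered reads on the gene were 1047 and 727 in controls and 179 and 327 in cKO libraries, so counting error is small beside the difference. The log2 fold change was -1.63 (SE 0.327, 95% interval -2.47 to -0.79, limma adjusted p = 0.156), and limma-voom on the recovered reads gave -1.68 with an adjusted p of 0.00877. With each library left out in turn the change was between -2.08 and -1.18, and *Npy* was called each time.

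*Npy* was the only 1 of the 10 genes called in cortex, where 7.01% of the 15691 genes tested were called. *Lhx6*, at 17.3 and 17.7 FPKM in controls and 15.2 and 17.2 FPKM in cKO cortices, also had separate groups, with a log2 fold change of -0.11 (95% interval -0.33 to 0.12). These were 2 of 10 separate members, beside 44.8% of all genes. The median log2 fold change of the 10 was 0.02, and that of all genes -0.0053.

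*Sst*, the other peptide, did not share the change of *Npy*. It was at 29.1 and 16.3 FPKM in controls and 21.5 and 30.1 FPKM in cKO cortices, with a log2 fold change of 0.21 (95% interval -0.55 to 0.98). The GABA genes overlapped between the groups, with *Gad1* at 4.96 and 4.87 FPKM against 4.11 and 6.06 FPKM. *Gad2* was at 6.70 and 7.25 against 5.80 and 8.96 FPKM and *Slc32a1* at 5.18 and 3.63 against 3.50 and 5.72 FPKM.

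The DLX genes overlapped between the groups in the same way. *Dlx1* was at 27.2 and 22.4 FPKM in controls and 21.4 and 26.7 FPKM in cKO cortices, *Dlx2* at 8.68 and 9.47 against 7.24 and 9.83 FPKM, and *Dlx5* at 4.07 and 3.66 against 2.79 and 5.46 FPKM. *Dlx6*, with 30 to 82 recovered reads, was at 0.650 and 0.693 against 0.643 and 1.85 FPKM. All 10 genes, *Npy* included, were higher in cKO library 2 than in cKO library 1, and for 9 of them cKO library 1 was the lowest of the 4. Leaving out cKO library 1 brought *Dlx5* (log2 fold change 0.41) and *Dlx6* (0.77) past the call threshold, and leaving out control 1 did so for *Sst* (0.61).

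The effect on *Npy* was compared between cortex and hippocampus. The log2 fold change in cortex minus that in hippocampus was -1.54 (SE 0.337, adjusted p = 0.0459 for the limma interaction), and 1.61% of the 10712 genes tested in both tables passed that threshold. Leaving out 1 of the 10 libraries gave -1.99 to -1.09, and in 8 of these 10 fits the adjusted p was over 0.05, reaching 0.152 without cortical cKO library 1. For the other 9 members the adjusted p-values of the difference were between 0.387 and 0.98.

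Of the 25 further genes, 21 were tested in cortex, with 0 called higher and 1 called lower, where 7.01% of all genes tested were called. *Nr2f2*, a nuclear receptor of caudal eminence interneurons, was at 2.84 and 1.97 FPKM in controls and 1.65 and 1.395 FPKM in cKO cortices (log2 fold change -0.42, limma adjusted p = 0.37). This call was lost when control 1 (-0.24), cKO library 1 (-0.50) or cKO library 2 (-0.35) was left out. Markers of other cells moved beside *Npy*. The sum of 5 endothelial markers was 33.3 to 33.7 FPKM in controls and 53.5 to 53.9 FPKM in cKO cortices, with 2 of 5 called higher (*Cldn5* and *Cdh5*). That of 10 striatal markers was 41.7 to 46.7 against 50.6 to 60.1 FPKM, with *Ppp1r1b* called higher, and that of 10 excitatory markers was 1128 to 1209 against 1132 to 1170 FPKM. The sum of 5 Cajal-Retzius markers was 16.4 to 19.2 against 11.7 to 16.2 FPKM, with 0 of 4 called, and that of 5 microglial markers 6.47 to 6.51 against 6.87 to 9.19 FPKM, with *Csf1r* called higher. *Aqp1* was called higher on the choroid plexus list. The 25 further interneuron genes summed to 191 to 198 against 174 to 185 FPKM, with 14 of 21 tested lower. Their part in the fall of *Npy* was not tested.

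In the *Rnf2* hippocampi, *Dlx2* was the 1 member of 10 that was called, where 4.71% of the 15764 genes tested were. It was at 8.36 and 6.80 FPKM in controls (357 and 302 recovered reads) and 11.8 and 11.4 FPKM in cKO hippocampi (559 and 525 reads). Both cKO libraries lay above both controls, by a log2 fold change of 0.56 (SE 0.136, 95% interval 0.22 to 0.90, limma adjusted p = 0.592). Without cKO library 1 the change was 0.53 and missed the unadjusted p threshold. No gene of this table had an adjusted p under 0.05 with the fold change threshold, while 742 were called by the unadjusted rule.

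Other DLX genes lay on the same side. *Dlx1* was at 15.8 and 16.95 FPKM in controls and 20.9 and 20.9 FPKM in cKO hippocampi, with a log2 fold change of 0.34 (95% interval 0.07 to 0.60, limma adjusted p = 0.679) under the threshold. *Dlx5* was at 2.36 and 1.39 FPKM against 2.701 and 3.28 FPKM (log2 fold change 0.49, 95% interval -0.05 to 1.02). *Lhx6* was at 16.7 and 17.2 against 17.7 and 18.8 FPKM, which also left the groups separate, and *Dlx6* was at 1.15 and 0.217 against 1.12 and 0.859 FPKM, from 8 to 44 recovered reads. With *Dlx2*, 4 of the 10 genes had separate groups, beside 38.3% of all genes. Without control 1 the changes of *Dlx5* and *Dlx6* were 0.73 and 0.71, and both were called.

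The remaining members varied within groups more than between them. *Sst* was at 44.9 and 19.4 FPKM in controls and 36.8 and 25.97 FPKM in cKO hippocampi, and *Npy* at 21.5 and 15.6 against 21.8 and 13.5 FPKM. *Gad1* was at 13.8 and 9.63 against 13.4 and 8.37 FPKM. *Gad2* was at 9.45 and 7.76 against 8.42 and 8.91 FPKM and *Slc32a1* at 9.10 and 6.55 against 9.61 and 6.96 FPKM. The first library of each group was the higher one for 8 of 10 genes in controls and 7 of 10 in cKO hippocampi. Intervals of the log2 fold change were wide, from -0.92 to 1.04 for *Sst*, so a change of up to that size could not be resolved. The median over the 10 genes was 0.09, and over all genes it was -0.00024.

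The difference between the effect of *Rnf2* deletion and that of the *Kdm2b* mutation in hippocampi passed the adjusted threshold for 0 of the 10 genes, by the limma interaction, and for 0.683% of the 11270 genes tested. Among the 10 genes the lowest adjusted p was that of *Dlx2*, with a difference of 0.43 (SE 0.153, limma adjusted p = 0.205). Of the 25 further genes, 22 were tested in the *Rnf2* table, where 4.71% of all genes tested were called. *Htr3a* was called higher (4.07 and 5.92 against 7.002 and 7.95 FPKM) and *Etv1*, an ETS-family factor, lower (5.15 and 4.73 against 3.38 and 3.08 FPKM). Their log2 fold changes were 0.51 and -0.49, with adjusted p-values of 0.679 and 0.644 from limma. Neither call held without cKO library 1 (0.59 and -0.54) or cKO library 2 (0.43 and -0.44), and that of *Htr3a* did not hold without control 1 (0.29). The sum of 5 choroid plexus markers was 50.4 and 12.5 FPKM in controls and 242 and 7.73 FPKM in cKO hippocampi, with 0 of 4 called. Microglial markers were lower in 5 of 5 genes and endothelial markers in 5 of 5, with 0 called in each list, and Cajal-Retzius markers were higher in 5 of 5, with *Lhx1* called. *Emx1* (11.7 and 12.9 against 16.7 and 16.9 FPKM, log2 fold change 0.42) and *Ppp1r1b* (log2 fold change 0.41) were called higher as well. Their lists did not rise with them. Excitatory markers were higher in 5 and lower in 5 of 10 genes (median log2 fold change -0.04). Striatal markers were higher in 3 and lower in 5 of 8 tested genes (median -0.12), and summed to 32.0 to 32.6 against 30.8 to 31.9 FPKM. The part of these cells in the values of *Dlx2* was not tested.

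Levels were not compared between tables by a test, because the tables were made separately. Mean *Gad1* in controls was 32.2 FPKM in the first hippocampal table and 11.7 FPKM in the *Rnf2* table of the same tissue, while *Gad2* was at 9.94 and 8.60 FPKM. Within the *Rnf2* table the order of control means ran from *Sst* (32.1 ± 17.98 FPKM, SD, n = 2) through *Npy* (18.5 ± 4.19), *Lhx6* (16.9 ± 0.324) and *Dlx1* (16.4 ± 0.828) to *Dlx6* (0.685 ± 0.663), and these first 4 neighbours lay within their spread of each other. In cortex *Npy* came first (72.2 ± 16.6 FPKM, SD, n = 2), ahead of *Dlx1* (24.8 ± 3.39), *Sst* (22.7 ± 9.03) and *Lhx6* (17.5 ± 0.228).

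Across the 14 tissue libraries the members moved together to differing degrees. Each gene was centred on its mean in its table, and each member was set against the median of the other 9. Pearson's r, given as a description without a test, was 0.84 for *Slc32a1*, 0.83 for *Dlx5*, 0.81 for *Gad2* and 0.76 for *Gad1*, and was lowest for *Lhx6* (0.35) and *Npy* (0.31). The median of the members was highest in cortical cKO library 2 (0.27 above the table means on the log2 scale) and lowest in cortical cKO library 1 (-0.23), so libraries of 1 group held both ends. Among the 10536 genes tested in all 3 tissue tables, the non-members with patterns most like that median were *Sp9* (r = 0.85), an interneuron transcription factor of the further list, *Utp18* (0.83), *Zkscan14* (0.82), *Rph3a* (0.81) and *Trmu* (0.80). The 14 points share libraries, dissections and scaling, and the 5 genes named last were picked for their high r.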

How the data were processed

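RNA-seq of P0 hippocampus, cortex and hippocampal neurospheres was available as 4 tables of FPKM per gene, made by the authors with cutadapt, STAR (mm10) and Cufflinks 2.2.1 for the *Kdm2b* hippocampal and neurosphere tables, and with Ensembl gene lengths for the other two. The authors ran DESeq2 on read counts, which were not used here, and 0 columns of samples were left unused. Where a name had several entries, that with the highest mean was taken, and a comma-joined name counted for each gene in it. Each table was fitted by itself with limma 3.58.1 under R 4.3.3 (moderated variances with a mean-variance trend) on log2(FPKM + 1), after genes averaging under 0.5 FPKM were left out. Calls needed a log2 fold change over 0.4 in size and p under 0.05, as in the study, and Benjamini-Hochberg adjustment ran over all genes. Differences between tables were tested as interactions of genotype and table. The scripts were tested on simulated data.

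Low FPKM values in the cortical and *Rnf2* tables were whole multiples of what 1 read is worth (100% of values below 1000 reads, within 0.05 read), so reads were recovered and tested with limma-voom as an added fit. The members and lists were chosen with earlier results of these data known. All 10 members are named, further interneuron genes where called, and the 5 genes most like the members' median. Marker lists covered excitatory neurons, striatal neurons, ventral progenitors, thalamus, Cajal-Retzius cells, choroid plexus, microglia and endothelium. Alternatives changed the pseudocount (0.1), filter, scaling, variance trend, threshold, entry rule, replicate block and libraries. The replicate numbers of the labels were checked as pairs by correlating deviations from group means, and they did not pair the libraries.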

Additional observations from a re-analysis of the deposited data

Results flagged for a closer look

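The effect of the *Kdm2b* mutation on *Npy* differed between cortex and hippocampus. The log2 fold change was -1.63 in cortex and -0.09 in hippocampus, a difference of -1.54 (limma interaction, adjusted p = 0.0459 over 10712 genes). Both cortical cKO libraries lay below both controls, while the hippocampal groups overlapped, where the change was -0.28 without cKO library 3 (limma adjusted p = 0.0405). The adjusted p was over 0.05 in 8 of the 10 fits that left out 1 library.

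The effect on *Dlx1* differed between neurospheres and hippocampus by 1.54 and that on *Dlx2* by 2.06 in the limma interaction. Both were near 0 in the control cultures and passed the filter there only through the cKO libraries, so that the neurosphere effect had to be large, and the hippocampal *Dlx1* entry is joined with *Metap1d*. Of all genes tested, 26.9% passed this test.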

How the results depend on the processing

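Leaving out 1 library at a time gave 0 to 1 called members in *Kdm2b* hippocampi, 2 in neurospheres, 1 to 3 in cortex and 0 to 3 in *Rnf2* hippocampi, and 0 to 1 members whose effect differed between cortex and hippocampus. Where a group had 2 libraries, its remaining library was assumed to vary like the other group. The 2 members called in neurospheres were *Dlx1* and *Dlx2*, which passed the filter only through the cKO libraries and so had to differ. With adjusted p in place of p the count was 0 in cortex and 0 in *Rnf2* hippocampi, where 67 and 0 genes in all passed in place of 1100 and 742. With no fold change threshold it was 1 in *Kdm2b* hippocampi (*Dlx1*) and 2 in *Rnf2* hippocampi (*Dlx1* and *Dlx2*), beside 3090, 4668, 2013 and 1121 genes in all in hippocampi, neurospheres, cortex and *Rnf2* hippocampi. With no filter *Gad2* joined the called genes in neurospheres (3). Without a variance trend, 0 members differed between cortex and hippocampus (*Npy*, limma adjusted p = 0.0738). Counts over all genes were 1667 without cortical control 1, and 1580 without control 2 and 468 without cKO library 2 of the *Rnf2* table.

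Scaling libraries to the same FPKM total turned the cortical log2 fold changes of *Gad1* (-0.014) and *Dlx5* (-0.0097) below 0, and shifted the median of all genes in neurospheres by 0.105 on the log2 scale, to 0.094. With 1 library left out the sign changed for 3 of 10 members in *Kdm2b* hippocampi, 8 in cortex and 6 in *Rnf2* hippocampi, and for none of the 3 tested in neurospheres. Of those 3, *Dlx1* and *Dlx2* passed the filter only through the cKO libraries and so had to be higher. In *Kdm2b* hippocampi the log2 fold change ran from -0.056 to 0.18 for *Gad1*, from -0.043 to 0.21 for *Lhx6* and from -0.28 to 0.052 for *Npy*. In cortex it ran from -0.21 to 0.26 for *Gad1*, from -0.23 to 0.32 for *Gad2*, from -0.25 to 0.33 for *Slc32a1*, from -0.20 to 0.11 for *Dlx1*, from -0.29 to 0.11 for *Dlx2*, from -0.36 to 0.41 for *Dlx5*, from -0.024 to 0.77 for *Dlx6* and from -0.19 to 0.61 for *Sst*. In *Rnf2* hippocampi it ran from -0.42 to 0.20 for *Gad1*, from -0.11 to 0.14 for *Gad2*, from -0.14 to 0.28 for *Slc32a1*, from -0.12 to 0.71 for *Dlx6*, from -0.52 to 0.64 for *Sst*, from -0.41 to 0.24 for *Npy* and from -0.0098 to 0.16 for *Kdm2b*. The cause of these moves was not tested.

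Deviations of libraries with the same replicate number correlated at 0.049, -0.10 and -0.086 in *Kdm2b* hippocampi, -0.28 in neurospheres, -0.053 in cortex and 0.16 in *Rnf2* hippocampi, so the numbers did not pair them. With the replicate number as a block, 0, 2, 1 and 1 members were called, as without it, and all genes called numbered 831, 2992, 1197 and 989. The crossed pairing of the neurospheres, chosen after seeing the data, also called 2 members. These were *Dlx1* and *Dlx2*, which passed the filter only through the cKO libraries. Depth is unknown in the *Kdm2b* hippocampal and neurosphere tables, and with 2 libraries a group changes within the printed intervals could not be resolved.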

Other observations

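Sums of the Cajal-Retzius and choroid plexus lists overlapped between the groups in both hippocampal tables. Among the 5 Cajal-Retzius genes in *Kdm2b* hippocampi, 4 were higher and 1 was lower (*Reln*, log2 fold change -0.04). *Lhx1*, a LIM homeobox gene on the list for Cajal-Retzius cells, was the called gene of that list in both hippocampal tables, at 2.24 to 2.84 FPKM in controls and 4.29 to 5.05 FPKM in *Kdm2b* cKO hippocampi (log2 fold change 0.65, limma adjusted p = 0.0093), and at 2.36 and 2.71 against 3.69 and 3.95 FPKM in *Rnf2* hippocampi (log2 fold change 0.45, limma adjusted p = 0.679). It was named after its values were seen. The choroid plexus list summed to 5.21 to 16.3 FPKM in control and 6.84 to 59.5 FPKM in *Kdm2b* cKO hippocampi. Of 3 tested genes 2 were called higher (*Ttr* and *Clic6*), where 6.14% of all genes tested were called. The groups of *Ttr* overlapped (limma adjusted p = 0.194). *Clic6*, at means of 0.255 FPKM in controls and 0.769 FPKM in cKO, passed the filter only through the cKO libraries. *Kl* and *Aqp1*, under the filter, had lower means in cKO. The lowest sum of the cKO libraries was in cKO library 3, the highest for 6 of the 10 interneuron genes.

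In neurospheres the microglial list had 0 genes over the filter and a sum of at most 0.279 FPKM. The endothelial list summed to 5.35 to 5.73 FPKM in control and 4.57 to 5.18 FPKM in cKO cultures. Most of this sum came from 1 entry, *Pecam1* joined with *Polg2*, so the value belongs to both genes. It was at 4.76 and 5.47 FPKM in controls and 4.19 and 5.02 FPKM in cKO cultures, with overlapping groups. It was the only 1 of the 5 genes over the filter, and *Cldn5* was listed at 0 in all cultures.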
